A study of Solanum tuberosum with 72 samples.

Results

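The 12 arrays described here measured RNA of potato (Solanum tuberosum) roots at 9 h and 27 h of salt, 3 arrays for each time, with the 3 unstressed control arrays of each time. They were chosen by tissue, condition and time from the 72 arrays of the series. The tests of single spots were fitted on all 36 root arrays, so those of 3 h, cold and heat enter the estimate of the spread. Leaf, cold and heat values are set beside the root salt changes at the end. The plants were seedlings of the true seed variety Gilroy, grown for 5 weeks on hydroponic rafts at 25 °C with 16 h of light and 8 h of dark. Salt roots came from plants given NaCl, as 100 mM in the sample descriptions and as 150 mM in the treatment field, and control roots came from unstressed plants sampled at the same hour. A sample pooled 6 plants from 2 boxes, and the whole experiment was done 3 times independently, which gives the replicate numbers 1 to 3. Every array is a 2-colour hybridisation: Cy3 labelled the root sample and Cy5 labelled a pool of unstressed roots from 6 boxes of the same hour and experiment, with no dye swap.

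Salt acts on a root in phases. Water becomes harder to take up at once, and sodium and chloride then accumulate over hours to days, so that an early response to osmotic stress passes into one that includes ion handling, altered sugar use and protective or defence proteins. Plasma membrane proton pumps power the export of sodium, and abscisic acid is a main signal of the early phase. The 9 h and 27 h samples ask what is still altered after that early phase, for which the 3 h root arrays of the same experiments serve as the earlier point.

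All changes below are the log2 ratio on the salt array minus that on the control array. Which dye stands in the numerator is not stated, so a change is called positive or negative and neither word says whether the RNA rose or fell. CI7, a dehydrin of cold-stressed potato that was to help settle the direction, has no value on any array. A spot entered the tests where salt and control had at least 2 values each at both times, which left 15865 of 32448 spots, 15321 of them also tested at 3 h. Most spots are printed as duplicates, so a gene can count more than once. Of the spots tested, 1308 (8.24%) carry the name of 1 gene, 392 genes in all, and the other spots are unnamed here. The 12 arrays had 16336 to 18282 measured spots, and duplicate spots on an array differed with an SD of 0.17 to 0.27, highest on the 27 h salt array of experiment 3. Photosynthesis genes, which roots should use little, were measured: none of 9 spots of the Rubisco small subunit family and none of 4 spots of cab1 and PSBO passed the test. The Rubisco spots were negative at 9 of 9 spots at 9 h (median −0.66) and at 8 of 9 at 27 h (median −0.40), with array means of −0.74 to −0.12 on salt arrays against 0.08 to 0.35 on control arrays at 9 h, and −0.40 to −0.36 against −0.28 to 0.31 at 27 h. All 4 spots of cab1 and PSBO were negative at both times. The part of leaf RNA in the changes below was not tested. In such tissue samples, fewer cells of a type and less RNA per cell cannot be told apart.

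Salt roots stood further from their reference pool than control roots at both times. At 9 h, 3.09%, 3.67% and 4.23% of the tested spots on the salt arrays lay 2-fold or more from the pool, against 0.788%, 2.07% and 1.04% on the control arrays of experiments 1, 2 and 3. At 27 h the salt arrays had 3.77%, 3.79% and 4.70%, against 0.887%, 1.27% and 1.56% on the control arrays. The groups did not overlap at either time. The salt mean was 3.66% ± 0.572 against 1.30% ± 0.677 in control roots at 9 h, and 4.09% ± 0.535 against 1.24% ± 0.340 at 27 h (SD, n = 3 each). The two-sided exact permutation test gave p = 0.1 at both times, the smallest that 3 arrays against 3 allow.

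**Figure D1:**
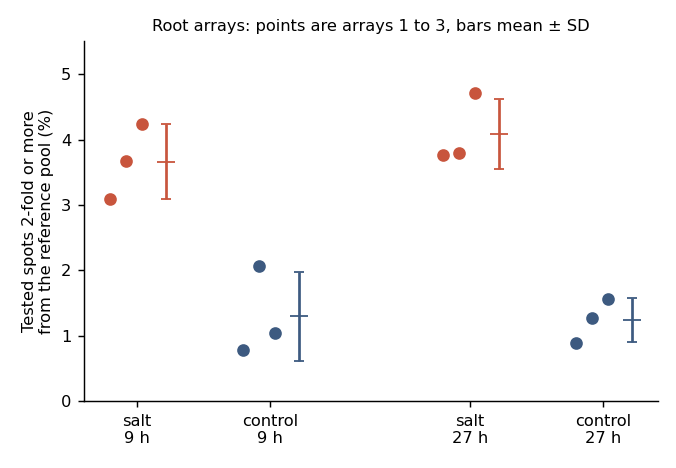
Percent of tested spots 2-fold or more from the reference pool on each root array, with salt left of control at 9 h and 27 h. Points are the arrays of experiments 1 to 3, and bars beside them are the mean and SD. All salt arrays lie between 3.09% and 4.70%, above all control arrays (0.788% to 2.07%).

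Spot by spot, 959 spots passed the test at 9 h (6.04% of those tested), 611 with a positive and 348 with a negative change. At 27 h 607 passed (3.83%), 378 positive and 229 negative. The test was limma's, fitted on all 36 root arrays, with Benjamini-Hochberg adjustment at 0.05, and a spot that passed it is called. The changes were moderate: the median size of a called change was 0.80 at 9 h and 0.86 at 27 h on the log2 scale. Changes of 2-fold or more numbered 209 positive and 123 negative among the called spots at 9 h, and 144 and 93 at 27 h. Changes of 4-fold or more numbered 15 and 10 at 9 h, and 14 and 16 at 27 h. The most extreme called values were 2.60 and −2.13 at 9 h, and 2.38 and −2.78 at 27 h. Where all 3 same-numbered differences were measured, they shared a sign at 897 of 902 called spots at 9 h and 584 of 585 at 27 h, which the test itself favours, since it was made on these differences. Over all tested spots with 3 differences, called or not, the shares were 46.3% at 9 h and 40.8% at 27 h. Without any one of the 6 arrays the count at 9 h was 500 to 595. At 27 h it was 337 without salt array 1, 235 without salt array 3, 298 without control array 1 and 283 without control array 2. Without experiment 1, 2 or 3 altogether the 9 h count was 515, 222 and 439, and that of 27 h was 333, 182 and 369. Of the 27 h calls 53.2%, 81.3% and 48.2% were positive without experiments 1, 2 and 3, and 62.3% with all 3.

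Of these, 354 spots were called at both times with one sign (2.23% of those tested), 258 positive and 96 negative, and no spot was called at both times with opposite signs. They are the changes described here as lasting. Their medians were close at the 2 times, at 0.95 and 0.91 for the positive spots and −1.07 and −1.05 for the negative spots at 9 h and 27 h. These values chose the spots and are given as a description. On single arrays, the median log2 ratio of the positive spots at 9 h was 0.89, 0.96 and 0.93 on the salt arrays, against −0.04, −0.01 and −0.01 on the control arrays. At 27 h it was 0.91, 0.72 and 0.89 on the salt arrays, against −0.07, −0.03 and −0.04 on the control arrays. The lowest of these salt medians was on the 27 h array of experiment 2. As these arrays also chose the spots, their medians are no sign of agreement between experiments. The negative spots had medians of −0.81, −0.96 and −1.07 on the salt arrays at 9 h, against 0.26, −0.07 and 0.20 on the control arrays. At 27 h they were −0.999, −0.87 and −0.999 on the salt arrays, against 0.11, 0.06 and 0.00 on the control arrays. The median SD of the 3 same-numbered differences was 0.21 at 9 h and 0.27 at 27 h for the lasting positive spots, and 0.30 and 0.25 for the lasting negative spots, against 0.20 and 0.21 over all tested spots. Without the salt array 3 of 9 h, the control array 2 of 9 h, or the salt arrays 1 and 3 or control arrays 1 and 2 of 27 h, left out one at a time, the count called at both times was 182 to 235. It was 173, 103 and 157 without experiment 1, 2 or 3.

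**Figure D2:**
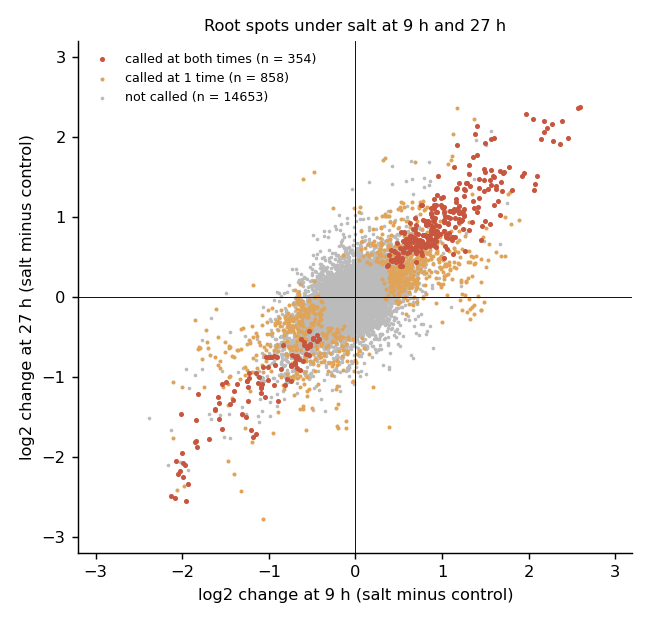
Change in root under salt at 27 h against that at 9 h, both as log2 ratio on salt minus control arrays, for the 15865 tested spots. Red spots are the 354 called at both times, all in the 2 quadrants of one sign, orange spots were called at 1 time, and grey spots at neither.

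The 2 times could not be separated spot by spot. The test of the difference, 27 h minus 9 h, called 0 spots with limma (0% of those tested). At an unadjusted p under 0.05 there were 623, or 3.93%, and the smallest adjusted p was 0.658. The median standard error of that difference was 0.24 on the log2 scale, so this does not show that the changes were alike. Leaving out experiment 3 gave 5 calls, all negative. As a description over 15865 spots, which share arrays and are not independent, the changes at 9 h and 27 h correlated with Pearson's r = 0.71 and Spearman's rho = 0.60. Spots called at one time mostly leaned the same way at the other: the 611 positive spots of 9 h had a median of 0.52 at 27 h, 95.6% were positive there and 42.2% were called positive, against 49.3% and 2.38% of all tested spots. The 348 negative spots of 9 h had a median of −0.52 at 27 h, where 97.4% were negative and 27.6% were called negative, against 1.44% of all. Read from the later time, 98.7% of the spots positive at 27 h had been positive at 9 h and 68.3% had been called positive, against 49.5% and 3.85% of all. For negative spots of 27 h these shares were 96.5% and 41.9%, against 2.19% of all called negative at 9 h. The calls of a spot at both times use the same estimate of its spread, which favours a shared call.

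More spots were called at 3 h than later. At 3 h 3807 of 15321 spots were called (24.8%), 2075 positive and 1732 negative. Those positive at 3 h had a median of 0.63 at that time, which chose them and favours a larger value there, and of 0.21 and 0.14 at 9 h and 27 h. Of them, 369 (17.8%) were called positive at 9 h and 261 (12.6%) at 27 h, against 3.85% and 2.38% of all tested spots. Those negative at 3 h had medians of −0.70, −0.21 and −0.16 at 3, 9 and 27 h, with 189 (10.9%) called negative at 9 h and 122 (7.04%) at 27 h, against 2.19% and 1.44% of all tested spots. The test of the difference from 3 h called 385 spots at 9 h (2.51%) and 655 at 27 h (4.28%). These differences rest on single arrays more than the others: without the 3 h control array 2 the counts were 58 and 184, and without experiment 2 they were 0 and 0, while 1312 and 1520 spots had an unadjusted p under 0.05. The count at 3 h itself was 1972 without that control array, and 1063 and 2348 without experiments 2 and 3. Without salt arrays 2 or 3 or any control array of 9 h, the 9 h difference had 132 to 204 calls. Without any salt array of 27 h, or control arrays 1 or 2, the 27 h difference had 314 to 429. Leaving out the 3 h salt array 2 gave 239 and 410. Without experiments 1 and 3 the counts were 155 and 67 at 9 h, and 87 and 295 at 27 h.

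The lasting changes were for the most part already present at 3 h. Of the 258 lasting positive spots, 254 were tested at 3 h. The 3 h values set none of their 9 h and 27 h changes, though the 3 h arrays entered the shared estimate of the spread. At 3 h 248 of these 254 were positive (97.6%), where 50.7% of all tested spots were positive. The median of the 254 was 0.97. By the test, 200 of the 254 (78.7%) were called positive at 3 h, against 13.5% of all tested spots. Their median log2 ratio at 3 h was 0.97, 0.96 and 1.08 on the salt arrays, against 0.04, 0.03 and 0.18 on the control arrays. Of the 96 lasting negative spots, 95 were tested at 3 h, 86 were negative with a median of −0.81 over all, 66 were called negative (69.5%, against 11.3% of all tested spots) and 1 was called positive. Spots that were called at 9 h and 27 h but not at 3 h numbered 82, of which 54 were positive and 28 negative. In all, 4306 of the 15321 spots were called at some time: 3115 at 3 h only, 290 at 9 h only, 127 at 27 h only, 303 at 3 h and 9 h, 122 at 3 h and 27 h, and 267 at all 3 times.

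**Figure D3:**
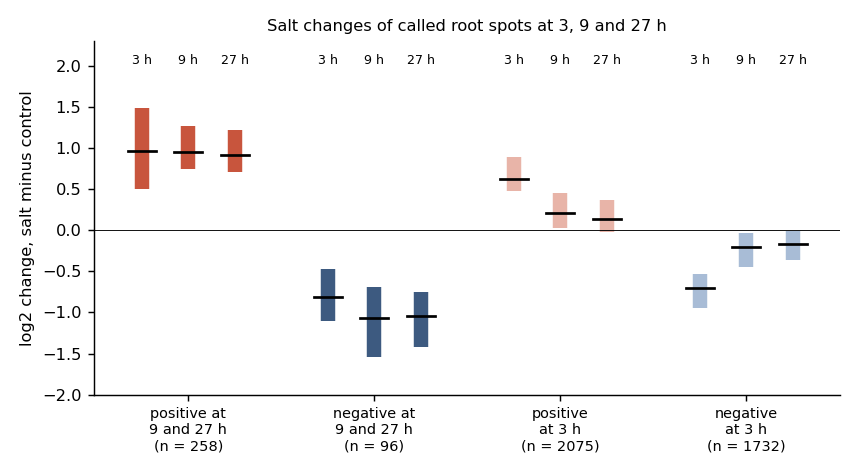
Salt change (log2, salt minus control) at 3, 9 and 27 h for spots called at both 9 h and 27 h and for spots called at 3 h, split by sign. Thick bars run from the lower to the upper quartile of the spots and black lines are medians. The spots lasting at 9 h and 27 h had medians of 0.97, 0.95 and 0.91 or −0.81, −1.07 and −1.05 in order of time, while those chosen at 3 h had medians nearer 0 at 9 h and 27 h.

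The strongest lasting changes among named spots belonged to ChtA (LOC102577835), a gene of acidic chitinases, which break down chitin and are pathogenesis-related proteins. On its spot with the largest change the ratio at 9 h was 1.60, 2.11 and 2.54 on the salt arrays, against −0.86, −0.60 and −0.09 on the control arrays. At 27 h it was 3.03, 1.18 and 1.31 on the salt arrays, against −0.64, −0.47 and −0.49 on the control arrays. Every salt array lay above every control array, which the choice of the spot from these arrays favours. Experiment 1 was the highest at 27 h. The change was 2.60 at 9 h (SE 0.48, adjusted p = 0.00142) and 2.38 at 27 h (SE 0.48, adjusted p = 0.00443), and it was 1.51 at 3 h. All 4 tested ChtA spots were called at both times, from 2.17 to 2.60 at 9 h and from 2.06 to 2.38 at 27 h.

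LOC102577637, a gene the annotation leaves unnamed, came second among the named genes. Its ratio was 1.61, 1.89 and 1.69 on the 9 h salt arrays, against −0.69, −0.41 and −0.89 on the control arrays. The 27 h salt arrays gave 2.04, 1.47 and 2.33, against −0.47, −0.32 and 0.03 on the control arrays. Its change was 2.39 at 9 h and 2.20 at 27 h (SE 0.24 each, adjusted p = 2.09e-06 and 9.81e-06), and 0.51 at 3 h, where it was not called. It is among the spots whose change differed from 3 h by the test, by 1.89 at 9 h (adjusted p = 0.00757) and 1.69 at 27 h (adjusted p = 0.00797). All 5 of its tested spots were called at both times. LOC102585195 likewise had no call at 3 h (−0.17) and changes of 1.40 at 9 h and 2.14 at 27 h (SE 0.38 each, adjusted p = 0.0294 and 0.00169), and its 27 h change exceeded that of 3 h by 2.31 (adjusted p = 0.018). On its 27 h salt arrays the ratio was 0.53, 0.56 and 0.78, against −1.43, −1.40 and −1.74 on the control arrays, so the control arrays lay further from 0 than the salt arrays, on the other side of it. RSI5 had a large change from the start, with 2.23 at 3 h, 2.09 at 9 h and 1.51 at 27 h, and it was called at all 3 times. Its ratio was 2.42, 2.01 and 2.16 on the 9 h salt arrays, against 0.08, 0.19 and 0.04 on the control arrays, and 1.81, 0.85 and 1.77 on the 27 h salt arrays, against −0.20, 0.08 and 0.00 on the control arrays. The difference of −0.72 between 27 h and 3 h for RSI5 did not pass the test (adjusted p = 0.147). LOC102587499 had 1.16 at 9 h and 1.22 at 27 h and LOC102577712 had 1.22 and 0.95, both called at both times. LOC102577733 had 1.07 and 1.005 and was called at both times on 1 of its 2 spots, its duplicate having 0.55 and 0.98.

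**Figure D4:**
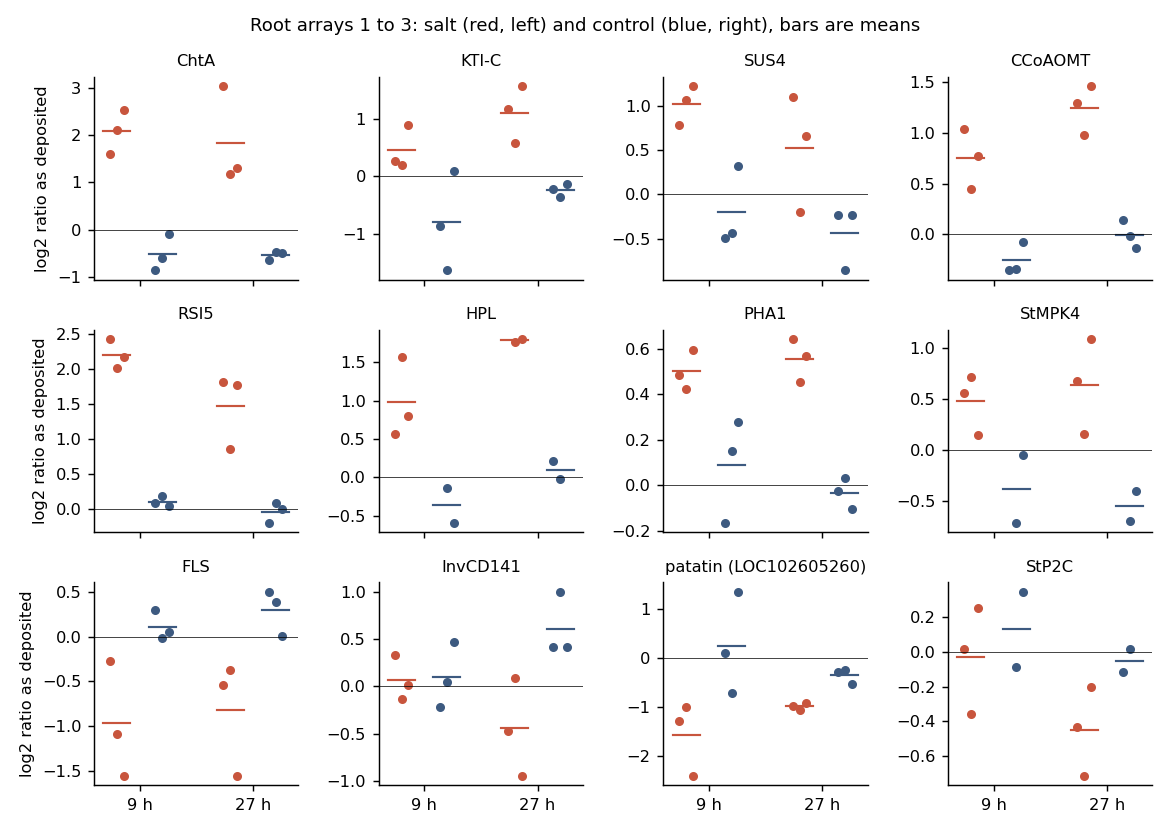
Deposited log2 ratio of 12 named spots on each root array at 9 h and 27 h, salt in red to the left of control in blue, with short bars for the means of up to 3 arrays. ChtA, KTI-C, SUS4, CCoAOMT, RSI5, HPL, PHA1, StMPK4 and FLS did not overlap between salt and control at either time. InvCD141 overlapped at 9 h only. The patatin spot did not overlap at either time. It and the HPL spot were called at 9 h only, and the StMPK4 spot at 27 h only. StP2C, which had a change of 1.49 at 3 h, was called at neither time, though its groups did not overlap at 27 h. Other than PHA1 and StP2C, the spots were chosen by their calls on these arrays, which favours groups without overlap. HPL, StMPK4 and StP2C had values on only 2 arrays in some groups, which makes overlap less likely. The share of all tested spots without overlap is not given here.

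The group of defence genes and protease inhibitors holds the largest lasting change of a named spot, that of ChtA. Of 23 tested spots of 8 genes, at 9 h 7 were called positive and 1 was called negative, while at 27 h 8 were positive and 1 was negative, with medians of 0.48 and 0.60, against medians of 0.00 at both times over all tested spots. Of all tested spots 3.85% were called positive at 9 h and 2.38% at 27 h, while 2.19% and 1.44% were called negative, which are the shares to set beside the counts of each group. All of the groups of genes here were drawn up with values of these arrays known and are described, not tested as groups. Besides ChtA, the positive calls were KTI-C, a Kunitz-type protease inhibitor, and at 27 h a spot of SK2, a pistil chitinase. The KTI-C spot given has the largest mean change of both times among those called at both with all 3 pair differences positive. On it KTI-C had 1.26 at 9 h and 1.35 at 27 h (SE 0.29 each, adjusted p = 0.0101 and 0.00785), and 0.09 at 3 h. At 27 h its ratio was 1.18, 0.59 and 1.57 on the salt arrays, against −0.22, −0.36 and −0.14 on the control arrays. Its 8 tested spots did not move as one: 3 were called at each time, and their changes ran from −0.15 to 1.31 at 9 h and from −0.11 to 1.54 at 27 h. Members of the proteinase inhibitor II family had negative changes, PIN2K with −0.66 at 9 h (adjusted p = 0.0414) and PIN-II with −0.79 at 27 h (adjusted p = 0.0386).

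Genes of sucrose and starch metabolism had positive calls of 5 genes at both later times and none at 3 h. Of 38 tested spots of 13 genes, 13 spots of 5 genes were called positive and none negative at 9 h (median 0.41). At 27 h 10 spots of 5 genes were positive and 3 spots of 2 genes negative (median 0.39), whereas at 3 h none was positive and 4 were negative (median −0.02), against 13.5% and 11.3% of all tested spots. The later shares over all tested spots were 3.85% and 2.38% for positive calls, 2.19% and 1.44% for negative ones. SUS4, a sucrose synthase, which splits sucrose for use by the cell, had 1.23 at 9 h and 0.97 at 27 h (SE 0.17 each, adjusted p = 0.000106 and 0.00169), and all 4 of its spots were called at both times. Its ratio was 0.79, 1.08 and 1.23 on the 9 h salt arrays, against −0.49, −0.43 and 0.32 on the control arrays. At 27 h it was 1.11, −0.20 and 0.67 on the salt arrays, against −0.23, −0.86 and −0.23 on the control arrays. The groups did not overlap, which the choice of the spot favours, but experiment 2 lay low in both at 27 h. GWD, the glucan water dikinase that phosphorylates starch before its breakdown, had medians of 0.62 and 0.58 over 4 spots, of which 4 and 2 were called. AMYA1, an alpha-amylase, had 1.04 at 9 h (adjusted p = 0.00171) and 0.41 at 27 h (adjusted p = 0.285), while its duplicate spot was called at both. Its change at 9 h exceeded that at 3 h by 1.07 (adjusted p = 0.0412). The plastidic disproportionating enzyme dpeP had medians of 0.63 and 0.51 over 4 spots, with 2 and 1 called. agpS2, a small subunit of ADP-glucose pyrophosphorylase, the enzyme that opens starch synthesis, had 0.56 at 9 h and 0.71 at 27 h (SE 0.13 each, adjusted p = 0.0086 and 0.00169). These agpS2 values are of 1 spot, on which the 27 h change was 0.67 above that at 3 h (adjusted p = 0.0352). Its duplicate spot had smaller changes, of 0.41 at 9 h and 0.54 at 27 h.

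Of the 2 later times, only 27 h had negative calls in this group. InvCD141, a cell wall invertase, which splits sucrose outside the cell, had changes of 0.59 at 3 h, −0.03 at 9 h and −1.05 at 27 h (adjusted p = 0.0121), and the 27 h change lay below that of 3 h by the test, with a difference of −1.64 (adjusted p = 0.00907). Its ratio at 27 h was −0.47, 0.08 and −0.94 on the salt arrays, against 0.41, 1 and 0.41 on the control arrays. A spot of agpS3 was negative at 27 h, with −0.80, and had −1.12 at 3 h. Its duplicate was called negative at 3 h already (−0.87, adjusted p = 0.0133). GBSS, PAIN-1, InvCD111 and UGPase had no call at 9 h or 27 h, but GBSS was called negative at 3 h (−0.80, adjusted p = 0.0405).

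In the pathways of phenylpropanoids and flavonoids, 2 of 10 tested spots were positive and 2 negative at each time, where 3.85% and 2.19% of all tested spots were at 9 h and 2.38% and 1.44% at 27 h. Both positive spots were of CCoAOMT, the caffeoyl-CoA O-methyltransferase of lignin synthesis, with 1.01 at 9 h and 1.25 at 27 h (SE 0.25 each, adjusted p = 0.0152 and 0.00419) and 1.64 at 3 h. Its ratio at 27 h was 1.29, 0.98 and 1.46 on the salt arrays, against 0.14, −0.01 and −0.14 on the control arrays. Both negative spots were of FLS, flavonol synthase, with −1.08 and −1.12 (SE 0.26 each, adjusted p = 0.0141 and 0.0145). The salt arrays gave −0.27, −1.09 and −1.56 for FLS at 9 h, against 0.30, −0.01 and 0.06 on the control arrays. The other 4 of 6 FLS spots were not called at 9 h or 27 h, so clones of that name differ. At 3 h the FLS spot given here was called negative (−0.73, adjusted p = 0.0458). Positive calls at 3 h fell on all 3 genes tested in these pathways, so other FLS spots were called positive then. HPL, hydroperoxide lyase of the oxylipin pathway, had 1.38 at 3 h, 1.35 at 9 h (adjusted p = 0.0116) and 1.28 at 27 h, the last from 2 arrays a group (adjusted p = 0.0512), and a second HPL spot was called at both times. POTLX-3, a lipoxygenase, was not called at 9 h or 27 h.

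Among transport and signalling genes, PHA1, a plasma membrane proton pump, had 0.41 at 9 h and 0.59 at 27 h (SE 0.12 each, adjusted p = 0.0425 and 0.00537) and 0.43 at 3 h. The salt arrays gave 0.49, 0.42 and 0.60 at 9 h, against −0.17, 0.15 and 0.28 on the control arrays, and 0.64, 0.45 and 0.57 at 27 h, against −0.03, 0.03 and −0.10 on the control arrays. The second pump measured, PHA2, had −0.13 and −0.19 and was not called. Of 29 tested spots of 13 kinases and phosphatases, 11 were called at 3 h, all positive, and 3 were positive at 9 h and at 27 h, with 1 negative at 27 h, of the calcium-dependent kinase CDPK2 (−0.45). Over all tested spots the called share also went down, with 24.8%, 6.04% and 3.83% at 3, 9 and 27 h. The lasting calls were of StMPK4, a MAP kinase with medians of 1.10, 0.78 and 0.80 over 4 spots at 3, 9 and 27 h. StP2C, a protein phosphatase of the type that opposes abscisic acid signalling, had 1.49 at 3 h (adjusted p = 0.00481), but −0.15 at 9 h and −0.08 at 27 h. Its drops after 3 h, of −1.64 and −1.57, did not pass the test (adjusted p = 0.107 and 0.109). StCDPK5 and PKIN1 were likewise called at 3 h and not at 9 h or 27 h.

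Genes of methionine and polyamine synthesis were called mainly at 3 h. At 3 h 21 of 37 spots, from all 6 genes, were called positive (median 0.64), at 9 h 1 was (median 0.14) and at 27 h none (median 0.23). Of all tested spots 13.5%, 3.85% and 2.38% were called positive at 3, 9 and 27 h, so the later counts are near that share. METK2, an S-adenosylmethionine synthetase, had 1.16 at 3 h and 0.33 and 0.43 at 9 h and 27 h on 1 of its 4 spots, and MS, methionine synthase, had 1.17, 0.04 and 0.37. The differences from 3 h did not pass the test for either gene (METK2 adjusted p = 0.197 and 0.243, MS adjusted p = 0.0645 and 0.174), so a smaller change later is not shown for them singly. The late call at 9 h was ARD, acireductone dioxygenase of methionine salvage, with 0.81. The translation factor eIF5A had 3 positive calls among 10 spots at 3 h and none later, where at most 3.85% of all spots were called positive. Among redox genes, FDH, formate dehydrogenase, was called positive at 4 of 4 spots at 3 h and at 9 h (medians 0.59 and 0.71) and at none at 27 h (0.46), and NAD(P)H:QR, a quinone reductase, was negative at 27 h with −1.24 (adjusted p = 0.0411). CAT1, a catalase, and Lea, a late embryogenesis abundant protein, had no call at 9 h or 27 h. The Lea spot had 0.50 at 3 h, where it was called, −0.28 at 9 h and 0.50 at 27 h (adjusted p = 0.114).

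**Figure D5:**
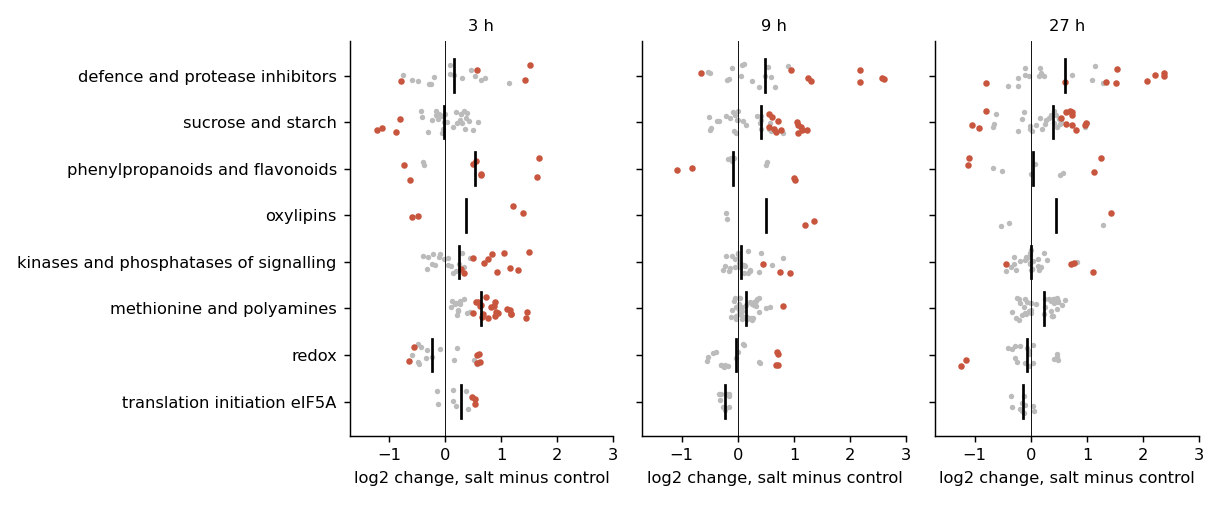
Salt change in root (log2, salt minus control) of every tested spot in 8 groups of named genes at 3, 9 and 27 h. Red spots were called, grey spots were not, and black lines are medians. By number, positive calls lie mainly among methionine, polyamine and kinase genes at 3 h, and among defence, sucrose and starch genes at 9 h and 27 h. Groups differ in size: at 3 h 6 of the 10 phenylpropanoid and flavonoid spots were called positive.

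Few of the lasting negative spots carry a gene name: 4 spots of 3 genes, of which FLS and LOC102577692 (−0.54 at 9 h and −0.62 at 27 h) met the rule for named genes. LOC102577434, named after its values were seen, is the third gene. The most negative lasting spots have no name here. Spot 139307 had −1.999, −1.40 and −2.06 on the 9 h salt arrays, against 0.56, −0.53 and 0.93 on the control arrays, a change of −2.13 (SE 0.35, adjusted p = 0.00047). At 27 h it had −2.56, −2.94 and −2.12 on the salt arrays, against 0.16, −0.51 and 0.20 on the control arrays, a change of −2.49 (SE 0.35, adjusted p = 0.000145). Spot 132726 had −1.95 at 9 h and −2.56 at 27 h (SE 0.33 each). For both spots, every salt array lay below every control array at either time, which their choice from these same arrays favours.

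How far these calls rest on 1 array or 1 experiment differed between genes. With each of the 6 arrays of a time, each experiment and the heat array left out in turn, which makes 10 fits, LOC102577637, RSI5, LOC102587499, SUS4 and spot 139307 kept their calls at both times in all 10. ChtA kept its call at 9 h in all 10, and at 27 h lost it without salt array 3, control array 1 or experiment 1. KTI-C lost its call at 9 h in 4 fits and at 27 h in 3, and CCoAOMT lost it in 5 and 1. FLS lost it in 5 and 6 of the fits, and LOC102577692 in 8 and 7. LOC102585195 lost its call at 9 h in 7 fits and kept it at 27 h in all. PHA1 lost its call at 9 h without any one of the 6 arrays or any experiment, and at 27 h without salt array 3 or experiments 1 or 3. agpS2 lost its call in 5 fits at 9 h and, at 27 h, without experiment 2. The calls of PIN2K, GWD and LOC102602308 at 9 h were each lost in 8 fits, InvCD141 at 27 h in 4, NAD(P)H:QR at 27 h in 7, and the patatin spot at 9 h in 4. PIN-II at 27 h lost its call in 4 of the 6 fits that could be made for it, and StMPK4 at 27 h in 2 of 6. LOC102577733 lost its call in 4 fits at 9 h and 6 at 27 h. AMYA1 at 9 h and 16R at 27 h kept theirs in all 10. Some calls also rest on the replicate block. With no block the adjusted p was 0.170 for SUS4 and 0.0502 for ChtA at 27 h, 0.0610 and 0.0604 for KTI-C at 9 h and 27 h, 0.103 for LOC102585195 at 9 h, 0.144 and 0.228 for LOC102577733, 0.226 for InvCD141 and 0.0913 for PHA1 at 9 h. LOC102602308, NAD(P)H:QR, PIN-II, PIN2K and StMPK3 lost their calls with no block as well. Other calls rest on the cold and heat arrays in the fit. With salt and control arrays only, the patatin spot, LOC102577692, PHA1, PIN2K, GWD and StMPK3 lost their calls at 9 h. StMPK4, PIN-II and NAD(P)H:QR then lost theirs at 27 h.

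Calls at a single time included named genes of other roles. At 9 h LOC102605260, a patatin, the storage protein of tubers, was negative at 4 of 4 spots, with −1.81 on the named spot (SE 0.42, adjusted p = 0.0101), and its change at 27 h was −0.63 (adjusted p = 0.483). It had been negative at 3 h as well, at −1.27. Its ratio was −1.29, −0.999 and −2.40 on the 9 h salt arrays, against 0.10, −0.71 and 1.36 on the control arrays. LOC102577559 was positive at 3 h (2.07) and 9 h (1.31), with −0.03 at 27 h, a difference from 3 h of −2.10 that passed the test (adjusted p = 0.00213). LOC102602308 (−2.11) and LOC102590714 (−0.88) were called negative at 9 h only. At 27 h 16R was negative at 4 of 4 spots, with −1.40 on the named spot (SE 0.20, adjusted p = 0.000185), against −0.64 at 9 h (adjusted p = 0.0556) and 0.14 at 3 h. Its ratio was −0.97, −0.45 and −1.15 on the 27 h salt arrays, against 0.52, 0.48 and 0.63 on the control arrays. LOC102577576 had 1.76 at 27 h (adjusted p = 0.0039) and 1.12 at 9 h (adjusted p = 0.0565). None of these differed between 27 h and 9 h by the test, so a call at one time only is not shown to be particular to it.

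In the leaf arrays of the same 3 experiments, which share no sample with the root arrays, many of the lasting positive root spots were positive too. Of 239 of them tested in leaf, 152 (63.6%) were called positive at 9 h and 182 (76.2%) at 27 h, against 4.5% and 6.56% of all spots tested in leaf (9.79% and 14.1% counting both signs). Their leaf medians were 0.86 at 9 h and 1.09 at 27 h. At 3 h, 55 of 236 (23.3%) were called positive in leaf, against 1% of all spots tested (1.11% counting both signs). At 27 h 1 was called negative. Of 73 lasting negative root spots tested in leaf, 26 (35.6%) were called negative at 9 h and 33 (45.2%) at 27 h, against 5.29% and 7.51% of all, with medians of −0.45 and −0.56. No call at any leaf time was found for 48 of 236 positive and 34 of 71 negative spots. ChtA had 2.65 and 3.49 in leaf at 9 h and 27 h, LOC102577637 had 3.06 and 3.48, and SUS4 had 1.14 and 1.03, all called. KTI-C (0.24 and 0.20), FLS (0.17 and −0.30), PHA1 (−0.20 and 0.01) and spot 139307 (−0.06 and −0.03) were not called in leaf. Whether root and leaf differ for these genes was not tested.

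Root cold and heat arrays used the same control arrays as root salt, so their values are only set side by side. The lasting positive spots had medians of 0.20 and 0.37 in cold and 0.06 and 0.02 in heat at 9 h and 27 h. The lasting negative spots had −0.14 and −0.18 in cold and −0.37 and −0.68 in heat. Single genes ranged widely: RSI5 had 3.15 and 2.90 in cold but −0.31 and 0.02 in heat, and LOC102577637 had −0.66 and −1.14 in cold and 1.22 and 0.92 in heat.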

How the data were processed

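The deposited table holds log2 ratios, per the labels those of 2-colour arrays. The submitters' processing notes name limma, with no role or version. How background was corrected, how arrays were normalized and why cells are empty is not stated there. The scale is log2, each column's median on the 12 arrays is 0 to 0.014, so the authors' values are centred there, and the direction stays unknown. No spot intensities were used, so brightness over background is unknown here, and precision is limited by the 3 arrays a group.

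From this table, all 36 root arrays were fitted with limma's model (version 3.58.1, R 4.3.3), by a routine that groups spots by their missing values and was checked to give the results of lmFit and eBayes, with the reference pool (time and replicate number) as a block. The labels make a number an independent experiment with a shared pool, so the numbers pair the arrays. Deviations of same-numbered salt and control arrays from their group means correlated with r = 0.03 to 0.17 at 9 h and 0.10 to 0.16 at 27 h. Leaf arrays (36) were fitted likewise. p-values were adjusted over all tested spots by Benjamini-Hochberg, with 0.05 as the threshold. The fit was tested on simulated data. For the percent beyond 2-fold, exact permutation tests were used.

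Genes come from a platform annotation, which can be old: 1630 spots name 1 gene (430 genes), all matched to a RefSeq gene of SolTub_3.0, and 180 spots name several and were left unnamed. Duplicate spots follow from the print layout, which all 905 annotated accessions bear out. Named genes were those with a gene name among the 10 largest of each sign called at both times with all 3 pair differences of that sign, the 3 largest of each sign called at one time only, and the members of the gene lists. The members, lists and tests were chosen with earlier results of these data known, and most lists after the annotation and values were seen. Alternatives covered the block, the arrays fitted, scaling, filters, the threshold and left-out arrays. Leaving out 1 root heat array was added after seeing the data.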

Additional observations from a re-analysis of the deposited data

Results flagged for a closer look

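The salt change in root differed from that at 3 h by a test of the difference at 385 spots for 9 h and 655 for 27 h. Among the spots given singly, LOC102577637 differed from its change at 3 h by 1.89 at 9 h and 1.69 at 27 h, and AMYA1 by 1.07 at 9 h. At 27 h LOC102585195 differed from 3 h by 2.31 on one spot and 2.25 on another, SS2, a starch synthase, by 0.88 and agpS2 by 0.67. The SS2 spot itself was called neither at 3 h (−0.43, adjusted p = 0.0608) nor at 27 h (0.45, adjusted p = 0.147). Its duplicate had −0.41 at 3 h and 0.16 at 27 h. The differences between 27 h and 3 h were negative for LOC102577559 (−2.10), 16R (−1.54), InvCD141 (−1.64) and the unnamed spot 132726 (−1.73). All of these use the 3 h arrays: without experiment 2 both counts are 0, with 1312 and 1520 spots at an unadjusted p under 0.05.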

How the results depend on the processing

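The signs of the named genes' called changes were the same under every alternative run: of 911 recomputed values, 693 stayed past the threshold, 218 did not and none reversed. In part this was set in advance. Another block or threshold leaves the change itself as it was at spots with all values, and the changes were called on these same arrays. With no replicate block the calls were 646 at 9 h, 350 at 27 h, 219 at both times, 165 for 9 h minus 3 h and 337 for 27 h minus 3 h. With a replicate block of 3 levels the last 2 were 213 and 422. With salt and control arrays only, the 9 h minus 3 h difference had 178 calls, and with differences of same-numbered arrays 194. Quantile scaling gave 1831, 1323 and 649 at 9 h, 27 h and both times. Averaging duplicate spots, which leaves 8614 features, gave 605, 376 and 216, with 401 for 27 h minus 3 h and 2318 at 3 h. At an adjusted p under 0.01 there were 393, 264 and 161, with 60 and 147 for the differences from 3 h and 1915 at 3 h. Other than in these, and in the arrays and experiments left out, counts stayed within 1.5 times. Where the cause is not the alternative's own construction, it was not tested. A similar count can still hold other spots. With salt and control arrays only, 969, 730 and 433 spots were called at 9 h, 27 h and both times. Of the 959, 607 and 354 of the main fit, 715, 487 and 284 were among them. Of the spots called at both times 61.9% were then positive, against 72.9% in the main fit.

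Leaving out 1 of the salt or control arrays gave 500 to 595 calls at 9 h, 235 to 570 at 27 h and 182 to 319 at both times, and, with the 3 h control array 2 left out, 58 and 184 for the differences from 3 h and 1972 at 3 h. Without experiment 1 the calls were 515, 333 and 173 at 9 h, 27 h and both times, with 155 and 87 for the differences from 3 h. Without experiment 3 they were 439, 369 and 157, with 67 and 295, and 2348 at 3 h. Over all arrays and experiments left out there were 222 to 1091 calls at 9 h, 182 to 745 at 27 h, 103 to 413 at both times, 1063 to 4092 at 3 h, 0 to 5 for 27 h minus 9 h, 0 to 460 for 9 h minus 3 h and 0 to 727 for 27 h minus 3 h. The highest of these, except for the 5, come from leaving out the root heat array 1 of 27 h, which enters the shared spread and was left out after seeing the data. The salt minus control difference in the percent of spots beyond 2-fold was 2.37 at 9 h and 2.85 at 27 h, and 2.08 to 2.75 and 2.54 to 3.01 with 1 array left out.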

Other observations

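Some spots outside the tests had values on all 3 arrays of one group and on none of the other. At 9 h 12 had values on the salt arrays only, against 27 on the control arrays only. At 27 h these numbers were 16 and 20, and 0 and 2 spots had that pattern at both times. The rule by which the authors left cells empty is not given in the sources used here.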
